A study of Homo sapiens with 6 samples.

Results

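The genes described are 34 members of the actin cytoskeleton and of the gene programme driven by serum response factor (SRF) and its cofactors, the myocardin-related transcription factors (MRTF). They were chosen by symbol, as the rows of the deposited tables that carry these 34 names, and each symbol had 1 row among 58233 rows with an Ensembl gene identifier. The samples were 6 RNA sequencing libraries of the human bladder cancer cell line T24, which derives from a transitional cell carcinoma. In the Q63E group (n = 3) the cells stably carried a constitutively active mutant of the GTPase RhoC, and in the VEC group (n = 3) they carried the empty vector. Both groups were made with lentivirus and selected with puromycin. The labels do not say whether a transduced line was 1 clone or a pool, nor whether replicates were grown separately, and the p-values below rest on differences between libraries that may be no more than technical.

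RhoC in its active form favours the assembly of actin filaments and the contraction of non-muscle myosin. Unassembled actin binds MRTF proteins and holds them out of the nucleus, so that filament assembly frees them to join SRF at DNA elements called CArG boxes. Many targets of the complex are themselves cytoskeletal genes, and SRF also serves growth factor signalling through a second class of partners, the ternary complex factors (TCF). In bladder carcinoma cells these proteins are known for their part in cell shape, adhesion and migration.

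Values are fragments per kilobase of transcript scaled to the mapped total (FPKM), which are scaled by transcript length and so can be set side by side between genes. The deposited files do not name the unit, and read depth is unknown. Summed FPKM per library ran from 726929 to 769026. RHOC, whose value may include the transduced copy, had 1770.1, 1726 and 1744 FPKM in Q63E libraries, against 232, 218 and 232 FPKM in VEC libraries, a 7.69-fold higher mean in Q63E (log2 fold change 2.94, SE 0.036, adjusted p = 3.12e-07 in limma). Among markers of the labelled cell type, KRT7, KRT8 and KRT18 were abundant, while CDH1, UPK3A and KRT5 were listed at 0 in all 6 libraries. Summed over all 10 epithelial and urothelial markers, Q63E libraries held 3350 to 3455 FPKM and VEC libraries 2117 to 2157 FPKM. Of the 5 tested markers 4 were higher in Q63E (80%, against 11.3% of all genes tested). The largest change was that of KRT19, at 161 ± 1.85 FPKM in Q63E and 5.67 ± 0.393 FPKM in VEC (SD, n = 3 each). GATA3 averaged 0.363 ± 0.352 FPKM in Q63E and 1.79 ± 1.4 FPKM in VEC and did not pass (adjusted p = 0.121 in limma). The part of these or of the other markers in the results below was not tested. Smooth muscle markers, of which 2 of 8 had a mean of at least 1 FPKM, summed to 142 to 146 FPKM in Q63E libraries and 121 to 132 FPKM in VEC libraries, most of it from SMTN. The smooth muscle cofactor MYOCD was listed at 0 in every library and MYH11 averaged 0.263 ± 0.189 FPKM in Q63E and 0.183 ± 0.084 FPKM in VEC (SD, n = 3 each). Summed fibroblast markers reached at most 3.76 FPKM in Q63E and 2.46 FPKM in VEC, and summed leukocyte markers at most 0.3 FPKM in Q63E and 0.49 FPKM in VEC. Endothelial markers stayed at or under 0.24 FPKM in Q63E and 0.11 FPKM in VEC, and striated muscle markers at or under 0.08 FPKM in Q63E and 0.53 FPKM in VEC.

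The cytoskeletal genes were not shifted as a block but moved in both directions. Of the 34, 32 had a mean of at least 1 FPKM and were tested, while ACTG2 and CNN1 fell under that minimum. Among the 32, 11 rose (34.4%) and 8 fell (25.0%) in Q63E at an adjusted p under 0.05, and 13 did not pass. Over all 13346 genes tested, 11.3% rose and 14.0% fell, or 25.3% in either direction, against 59.4% of the cytoskeletal genes. That background includes genes of lower level than any of the 32. At a mean of at least 5 FPKM, which all 32 reached, 1371 of 9788 genes rose and 1662 fell. The cytoskeletal counts there stayed at 11 and 8. The median log2 fold change of the 32 was 0.018 and that of all genes −0.0023, whereas the median size of change was 0.25 for the 32 and 0.19 for all genes. The 2 groups did not overlap for 12 of the 32 on the higher side and for 10 on the lower side, shares of 37.5% and 31.3%, where all genes gave 21.1% and 22.8% (43.9% in either direction). The 34 were chosen with results of these data known, so these shares are given as a description. In bulk RNA, fewer cells that express a gene and less of its RNA per cell cannot be told apart.

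**Figure D1:**
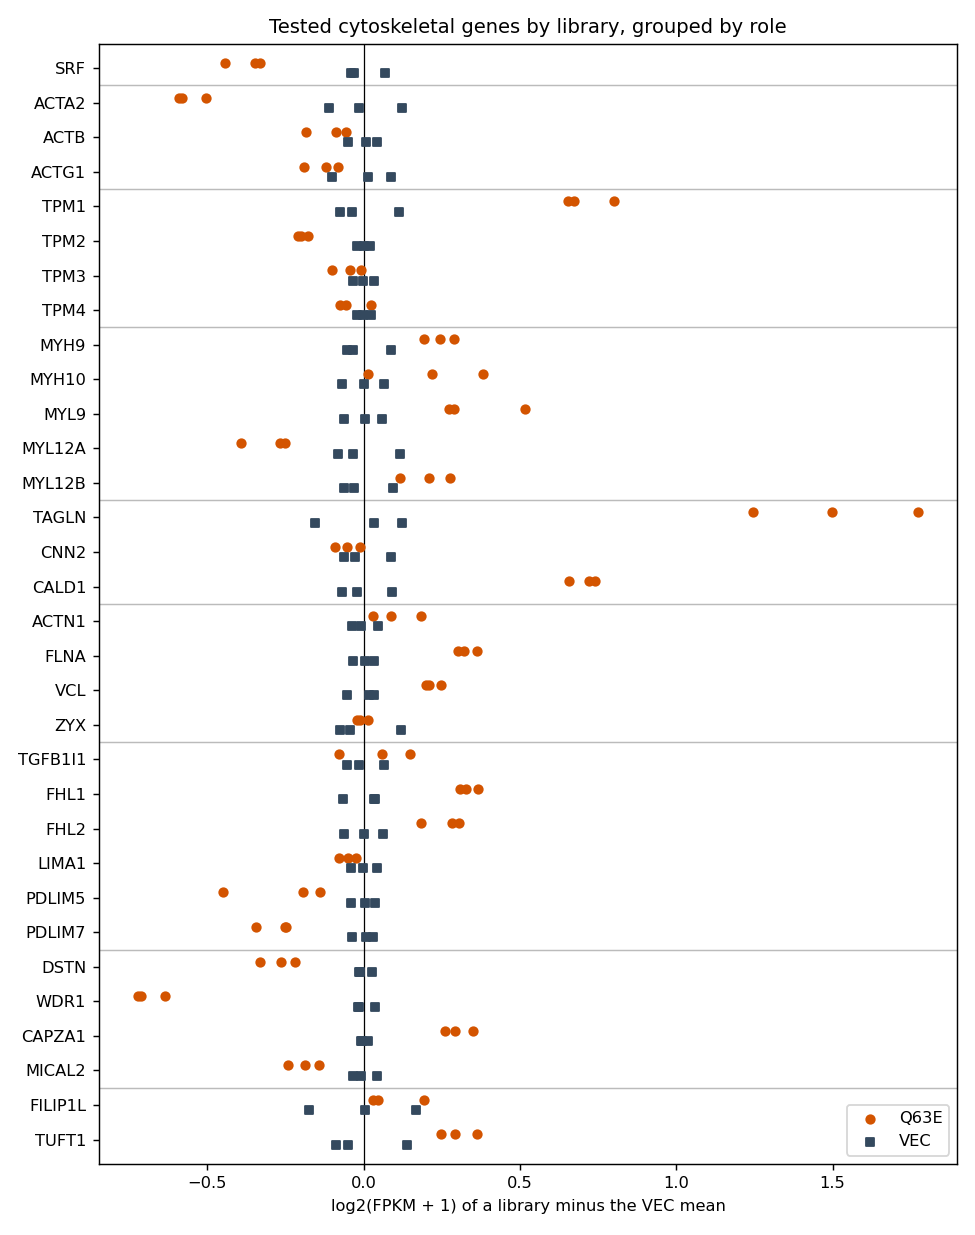
Each point is 1 library, placed by its log2(FPKM + 1) minus the mean of the VEC libraries for that gene, with Q63E as circles above VEC as squares and grey lines between roles. TAGLN lies farthest to the right, with TPM1 and CALD1 next, and WDR1 and ACTA2 lie farthest to the left.

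SRF, the transcription factor at the head of the programme, was lower in Q63E. SRF (ENSG00000112658, chromosome 6 from 43171299 to 43181507, plus strand on GRCh38) had 10.5, 9.64 and 10.4 FPKM in Q63E libraries, against 13.2, 14.2 and 13.1 FPKM in VEC libraries. Every Q63E library lay below every VEC library (log2 fold change −0.37, SE 0.066, adjusted p = 0.00858 in limma), a mean 24.6% lower.

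A CArG box is a palindrome of 10 bases, with 6 A or T bases between a pair of C and a pair of G, and SRF binds it. It was searched on both strands, which give the same matches, in RefSeq promoter windows (GRCh38.p14) that run from 250 bases before to 50 after each transcript start. ACTB, MYL9 and TAGLN had no window under their symbols and were not searched, which left 31 of the 34 genes. Of their 66 windows 13 held at least 1 match (19.7%), against 454 of 35116 windows of all genes (1.29%). Counted by gene, 11 of 31 (35.5%) had a match in some window, against 438 of 27305 (1.60%). Many of the 34 were chosen as known SRF targets, so a higher share is a description, and genes with many starts have more windows to match. Among the genes searched, a match was found for 3 of the 9 that rose and 1 of the 8 that fell. It was also found for 6 of the 12 that did not pass and 1 of the 2 not tested. MYL9 and TAGLN, which rose, are not in this split. With 1 mismatch allowed in the A and T core, 15 of the 31 genes had a match, in 21 of their windows (31.8%), against 8.13% of all windows. A match is a run of letters and not a measured binding site.

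The sequences below show the matches of SRF, which fell, of 3 genes that rose (FLNA, FHL2 and FHL1), and of 3 whose change did not pass (ACTG1, CNN2 and TPM4). Each is written 5′ to 3′ on the gene's own strand, in lower case with the CArG box in capitals. SRF carries a pair, 30 and 10 bases before its RefSeq start, and FHL2 carries different boxes at separate starts.
SRF (chr6:43171219-43171268, plus strand): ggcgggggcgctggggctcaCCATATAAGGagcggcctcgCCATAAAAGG
FLNA (chrX:154374699-154374748, minus strand): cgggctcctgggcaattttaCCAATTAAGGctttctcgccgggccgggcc
FHL2, upstream start (chr2:105438585-105438634, minus strand): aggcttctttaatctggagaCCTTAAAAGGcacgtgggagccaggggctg
FHL2, downstream start (chr2:105399091-105399120, minus strand): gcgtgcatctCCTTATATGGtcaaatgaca
FHL1 (chrX:136196911-136196940, plus strand): ccttggatcaCCTAAAATGGttaagaattt
ACTG1 (chr17:81512874-81512903, minus strand): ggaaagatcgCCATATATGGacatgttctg
CNN2 (chr19:1026499-1026548, plus strand): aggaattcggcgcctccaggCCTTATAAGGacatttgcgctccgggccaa
TPM4 (chr19:16067345-16067394, plus strand): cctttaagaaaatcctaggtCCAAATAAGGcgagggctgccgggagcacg

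**Figure D2:**
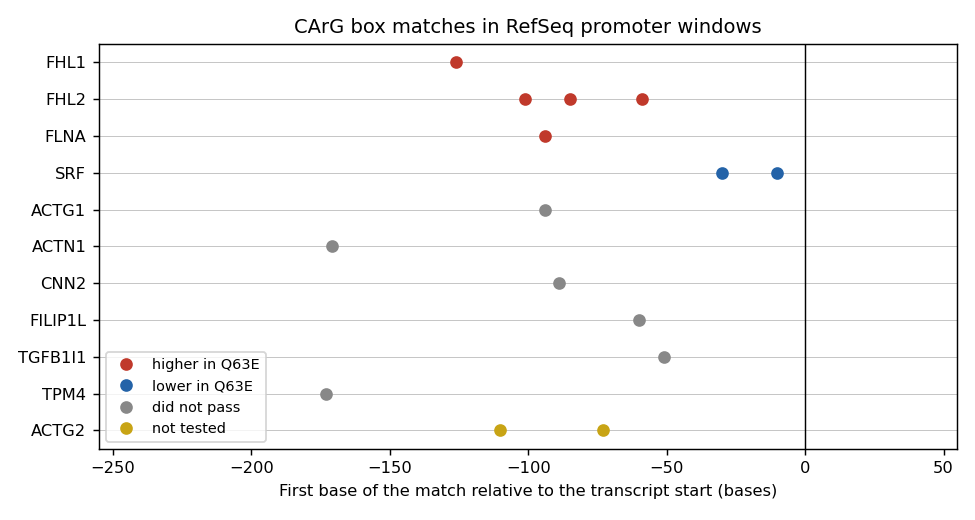
Each point is a CArG box match in a promoter window of 1 gene, placed by the distance in bases of its first base from the transcript start, and coloured by that gene's change in Q63E. Matches lie between 173 bases (TPM4) and 10 bases (SRF) before a start, and genes that rose, fell or did not pass are all among them.

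Among the actins, the smooth muscle isoform fell and the abundant cytoplasmic isoforms did not pass the test. ACTA2, smooth muscle alpha-actin (ENSG00000107796, chromosome 10 from 88935074 to 88991339, minus strand), had 3.98, 3.94 and 4.25 FPKM in Q63E libraries, against 5.9, 7.11 and 6.37 FPKM in VEC libraries. The Q63E values all lay below the VEC values (log2 fold change −0.56, SE 0.096, adjusted p = 0.00764), a mean 37.2% lower. ACTA2 overlaps STAMBPL1 over 40080 bases and FAS over 758 bases on the opposite strand, and both are more abundant. STAMBPL1 averaged 18.1 ± 0.59 FPKM in Q63E and 17.3 ± 0.44 FPKM in VEC (SD, n = 3 each) and did not pass (adjusted p = 0.452), nor did FAS (adjusted p = 0.118). No strand setting is stated, so reads of the overlap cannot be assigned to 1 gene with certainty.

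ACTB and ACTG1, the beta- and gamma-actins of the cytoskeleton, held nearly all actin RNA. ACTB had 3060.4, 2798 and 2993 FPKM in Q63E libraries, against 3074, 3279 and 3194 FPKM in VEC libraries. Its groups did not overlap, yet the difference did not pass (log2 fold change −0.11, SE 0.047, adjusted p = 0.137). ACTG1 had 5333, 4939 and 5184 FPKM in Q63E libraries, against 5258, 5994 and 5697 FPKM in VEC libraries, with overlapping groups (log2 fold change −0.13, SE 0.058, adjusted p = 0.149). The coding sequences of ACTB and ACTG1 are 91.2% identical over 1128 bases, so some reads may be shared. Of all 50-base stretches of the ACTB coding sequence, however, only 0.927% also occur in that of ACTG1. Summed over 6 actin genes the level averaged 8107 ± 335 FPKM in Q63E and 8839 ± 474 FPKM in VEC (SD, n = 3 each, exact two-sided permutation p = 0.2). ACTB held 36.4% ± 0.225 in Q63E and 36% ± 0.774 in VEC of that sum (exact permutation p = 0.6). ACTG2, the enteric gamma-actin, was under the minimum, with 0.82, 0.12 and 0.04 FPKM in Q63E libraries, against 0, 0.08 and 0 FPKM in VEC libraries, and 1 Q63E library supplied most of it. The striated muscle actins ACTA1 and ACTC1 reached at most 0.07 and 0.01 FPKM in Q63E libraries and at most 0.27 and 0.12 FPKM in VEC libraries.

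Of the tropomyosins, coiled-coil proteins that lie along actin filaments, TPM1 rose, TPM2 fell, and TPM3 and TPM4 did not pass. TPM1 (ENSG00000140416, chromosome 15 from 63042632 to 63071915, plus strand) had 128, 127 and 140.4 FPKM in Q63E libraries, against 86.8, 78.1 and 76.1 FPKM in VEC libraries. The lowest Q63E library was well above the highest VEC library (log2 fold change 0.71, SE 0.065, adjusted p = 0.000748), a 1.64-fold higher mean. TPM2 had 433, 442 and 436 FPKM in Q63E libraries, against 508, 501 and 493 FPKM in VEC libraries, also without overlap, and fell (log2 fold change −0.20, SE 0.029, adjusted p = 0.00423). TPM2 lies in a stretch of chromosome 9 whose genes were lower in Q63E: the 40 nearest tested genes on each side had a median log2 fold change of −0.33. With that median subtracted TPM2 turned to 0.13 and passed as higher (adjusted p = 0.0239). The median was subtracted as a fixed value, so this p-value leaves out the spread of the neighbours. The same limit holds for every p-value after such a subtraction.

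TPM3 averaged 641 ± 20.4 FPKM in Q63E and 664 ± 15.5 FPKM in VEC, and TPM4 371 ± 13.4 FPKM in Q63E and 380.0 ± 5.81 FPKM in VEC (SD, n = 3 each). Neither passed (adjusted p = 0.358 for TPM3 and 0.514 for TPM4), and their groups overlapped. With quantile normalization TPM3 passed as lower (log2 fold change −0.12, adjusted p = 0.0303). The sum of all 4 tropomyosins averaged 1580.4 ± 8.75 FPKM in Q63E and 1625 ± 26.1 FPKM in VEC. Within it TPM1 held 8.34% ± 0.477 in Q63E and 4.94% ± 0.279 in VEC, and TPM2 held 27.7% ± 0.147 in Q63E and 30.8% ± 0.066 in VEC. For the sum and both shares the groups did not overlap (exact two-sided permutation p = 0.1 each, the smallest that 3 against 3 libraries allow). With libraries rescaled to equal totals the sums overlapped, and the Q63E mean differed from the VEC mean by −0.224% in place of −2.73% (exact permutation p = 0.8). The shares of TPM3 and TPM4 overlapped between groups (exact permutation p = 0.9 for TPM3 and 1 for TPM4).

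Genes of non-muscle myosin II, the motor that pulls on actin filaments, moved by subunit: MYH9, MYL9 and MYL12B rose, MYL12A fell and MYH10 did not pass. MYH9, the heavy chain of non-muscle myosin IIA, had 526, 509 and 491 FPKM in Q63E libraries, against 414, 457 and 419 FPKM in VEC libraries. It rose (log2 fold change 0.24, SE 0.049, adjusted p = 0.0141), 18.2% above the VEC mean, while the median of its neighbours on chromosome 22 was −0.18. The call did not hold without Q63E replicate 1 (adjusted p = 0.0512) or without VEC replicate 3 (adjusted p = 0.0552). MYH10, the heavy chain of myosin IIB, had 57.1, 64 and 49.4 FPKM in Q63E libraries, against 46.7, 51.3 and 49 FPKM in VEC libraries, with 1 Q63E library inside the VEC range, and did not pass (log2 fold change 0.20, SE 0.095, adjusted p = 0.166). Without that library, Q63E replicate 3, it passed (log2 fold change 0.30, adjusted p = 0.0425). The heavy chain sum averaged 565 ± 22.3 FPKM in Q63E and 479 ± 25.4 FPKM in VEC (exact permutation p = 0.1, the smallest possible), a difference of 18.03% that was 21.02% with libraries rescaled to equal totals. MYH9 made up 89.96% ± 1.03 in Q63E and 89.8% ± 0.211 in VEC of it. MYH14, the third non-muscle heavy chain, was listed at 0 in all libraries.

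The regulatory light chains, whose phosphorylation switches myosin II on, moved in opposite directions. MYL12A and MYL12B are neighbours on chromosome 18 (from 3247481 to 3256236 and from 3261479 to 3278431, plus strand), and their coding sequences are 92.5% identical over 519 bases. MYL12A fell, with 405, 442 and 447 FPKM in Q63E libraries, against 577, 503 and 520.4 FPKM in VEC libraries (log2 fold change −0.30, SE 0.064, adjusted p = 0.0164). MYL12B had 358, 400.4 and 382 FPKM in Q63E libraries, against 353, 316 and 324 FPKM in VEC libraries, without overlap but only just above in 1 library, and rose at the edge of the threshold (log2 fold change 0.20, SE 0.058, adjusted p = 0.0495). MYL9, the light chain typical of smooth muscle, rose and had 61.9, 61.1 and 72.6 FPKM in Q63E libraries, against 50.6, 52.5 and 48.2 FPKM in VEC libraries (log2 fold change 0.36, SE 0.075, adjusted p = 0.016).

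Of the light chain total, MYL12A held 49.2% ± 0.336 in Q63E and 58.3% ± 0.583 in VEC, MYL12B 43.4% ± 0.969 in Q63E and 36.2% ± 0.168 in VEC and MYL9 7.43% ± 0.647 in Q63E and 5.53% ± 0.448 in VEC (SD, n = 3 each). All 3 shares were without overlap between groups (exact permutation p = 0.1 each, the smallest possible). Their sum overlapped between groups, at 877 ± 44.7 FPKM in Q63E and 915 ± 58 FPKM in VEC (exact permutation p = 0.6). How the deposited values divide reads that fit both MYL12A and MYL12B is not given in the sources used here, and 15.7% of all 50-base stretches of the MYL12A coding sequence also occur in that of MYL12B. The MYL12A call was lost without Q63E replicate 1 (adjusted p = 0.0517). That of MYL9 was lost without VEC replicate 3 (0.058) or with its neighbours' median subtracted (0.0536). Once the limma fit included a replicate block, MYL12A (adjusted p = 0.067) and MYL9 (0.0563) did not pass either. MYL12B did not pass without Q63E replicate 2 or 3 or VEC replicate 2 or 3 (adjusted p = 0.125 to 0.137). Nor did it pass with no filter on low values (0.109) or in limma without trend (0.0997). The same held with the replicate number as a block (0.135) and with the neighbours' median subtracted (0.22).

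**Figure D3:**
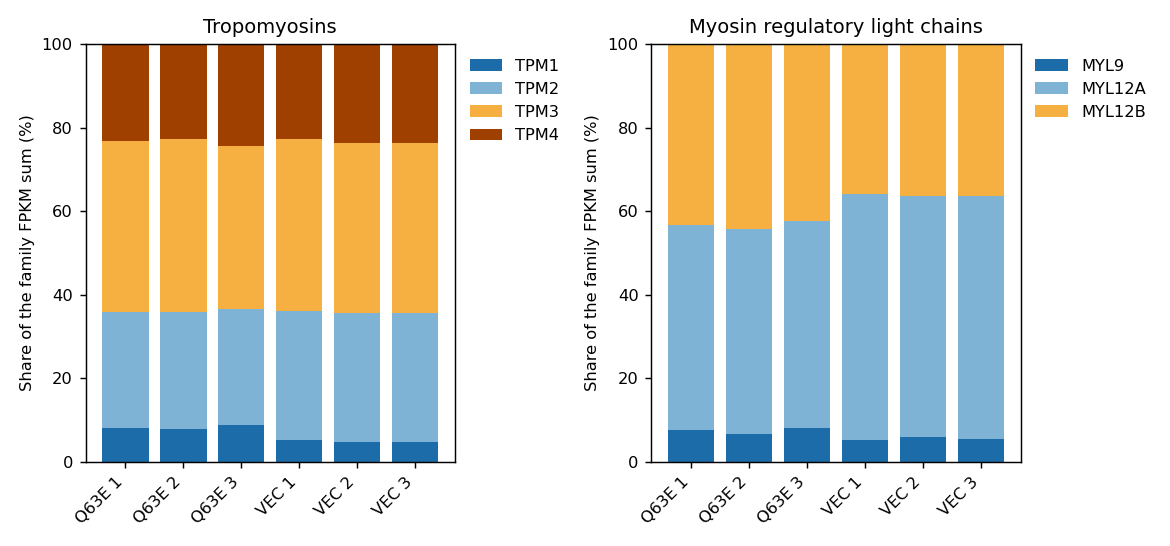
Stacked bars give the share in percent of the family's summed FPKM held by each gene in each library, Q63E libraries on the left, for the 4 tropomyosins and for the 3 regulatory light chains. TPM1 holds 7.97% to 8.88% of tropomyosin in Q63E libraries and 4.76% to 5.26% in VEC libraries, and MYL12A holds 48.9% to 49.6% of light chain in Q63E libraries and 57.7% to 58.9% in VEC libraries.

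The largest change among the 32 tested genes on the log2(FPKM + 1) scale was that of TAGLN (transgelin, or SM22), an actin-bundling protein of the calponin family and a classical SRF target. TAGLN (ENSG00000149591, chromosome 11 from 117199321 to 117204782, plus strand) had 44.4, 37.2 and 54 FPKM in Q63E libraries, against 15.5, 16.5 and 13.4 FPKM in VEC libraries. Its mean was 2.99-fold higher in Q63E, with no overlap (log2 fold change 1.51, SE 0.14, adjusted p = 0.000808). The Q63E libraries were also spread more widely, from 37.2 to 54 FPKM. Its last 446 bases overlap the end of PCSK7, a protease gene on the opposite strand, which fell (14.9 ± 1.8 FPKM in Q63E and 20.9 ± 1.27 FPKM in VEC, SD, n = 3 each, log2 fold change −0.46, adjusted p = 0.0141). The neighbours of TAGLN on chromosome 11 had a median log2 fold change of −0.17, opposite in sign to its own.

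CALD1 (caldesmon, which binds actin, myosin and tropomyosin; ENSG00000122786, chromosome 7 from 134744252 to 134970728, plus strand) also rose. Its values were 57.9, 55.3 and 58.7 FPKM in Q63E libraries, against 34.2, 33.1 and 37 FPKM in VEC libraries, a 1.65-fold difference of means (log2 fold change 0.71, SE 0.054, adjusted p = 0.000416). TAGLN, CALD1 and TPM1 were the 3 genes of the 34 with a log2 fold change above 0.5, and each passed under all 16 alternatives to the processing. The calponins are relatives of TAGLN. CNN2 had 129, 125 and 132 FPKM in Q63E libraries, against 128, 142 and 131 FPKM in VEC libraries and did not pass (log2 fold change −0.053, SE 0.049, adjusted p = 0.471). CNN1, basic calponin of smooth muscle, was barely present, with 0.14, 0.23 and 0.28 FPKM in Q63E libraries, against 0.47, 0.31 and 0.32 FPKM in VEC libraries. CNN3, acidic calponin and not one of the 34, rose slightly and averaged 123 ± 3.28 FPKM in Q63E and 113 ± 0.807 FPKM in VEC (SD, n = 3 each, log2 fold change 0.12, SE 0.034, adjusted p = 0.0484), a call that did not hold with its neighbours' median of 0.11 subtracted (adjusted p = 0.953).

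Of the genes for filament crosslinking and adhesion, FLNA and VCL rose while ACTN1 and ZYX did not pass. FLNA (ENSG00000196924, chromosome X from 154348524 to 154374638, minus strand), filamin A, which crosslinks filaments into networks, had 1329, 1294 and 1275 FPKM in Q63E libraries, against 1009.8, 1058 and 1037 FPKM in VEC libraries. This was a rise of 25.6% without overlap (log2 fold change 0.33, SE 0.033, adjusted p = 0.0011). VCL encodes vinculin, which links adhesion sites to actin, and had 101, 97.2 and 97.9 FPKM in Q63E libraries, against 85.6, 86.6 and 81.5 FPKM in VEC libraries (log2 fold change 0.22, SE 0.038, adjusted p = 0.0081). With the neighbours' median of 0.08 subtracted the rise of VCL was 0.14 and did not pass (adjusted p = 0.0502). ACTN1, alpha-actinin 1, had 235, 211 and 219 FPKM in Q63E libraries, against 205, 213 and 201 FPKM in VEC libraries, with overlapping groups (log2 fold change 0.1, SE 0.048, adjusted p = 0.181). ZYX, encoding zyxin of focal adhesions, averaged 152 ± 1.91 FPKM in Q63E and 153 ± 11.3 FPKM in VEC (SD, n = 3 each), with a log2 fold change of −0.0071 (SE 0.055, adjusted p = 0.94).

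Of 6 genes grouped here as LIM and PDZ-LIM genes, 2 rose (33.3%, against 11.3% of all genes) and 1 fell (16.7%, against 14.0%). The other 3 did not pass. The four-and-a-half-LIM proteins FHL1 and FHL2, known as partners of transcription factors and of the cytoskeleton, both rose. FHL1 had 154, 159.9 and 156 FPKM in Q63E libraries, against 118, 127 and 127 FPKM in VEC libraries (log2 fold change 0.33, SE 0.041, adjusted p = 0.00217). FHL2, an antagonist of some MRTF-SRF targets as well as a target, had 107, 105 and 98.1 FPKM in Q63E libraries, against 86.3, 82.4 and 89.95 FPKM in VEC libraries (log2 fold change 0.26, SE 0.05, adjusted p = 0.0126). In both genes the Q63E libraries were all above the VEC libraries. The FHL2 call was lost with the replicate number as a block (adjusted p = 0.054). PDLIM7 (enigma), which sits on filaments through its PDZ domain, fell and had 127, 127 and 119 FPKM in Q63E libraries, against 148, 152 and 155 FPKM in VEC libraries (log2 fold change −0.28, SE 0.04, adjusted p = 0.00395).

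PDLIM5, a relative of PDLIM7 on chromosome 4, had 47.6, 39.8 and 49.4 FPKM in Q63E libraries, against 54.8, 56.1 and 53 FPKM in VEC libraries. Its groups did not overlap, but the difference did not pass (log2 fold change −0.26, SE 0.084, adjusted p = 0.0642), and the neighbours' median of −0.36 was larger in size. LIMA1 (EPLIN), which stabilizes filaments, had 38.6, 39.3 and 37.8 FPKM in Q63E libraries, against 39.9, 38.8 and 41.2 FPKM in VEC libraries. TGFB1I1 (Hic-5), a focal adhesion adaptor, averaged 85.5 ± 6.86 FPKM in Q63E and 82.9 ± 3.55 FPKM in VEC (SD, n = 3 each). Groups overlapped in both, and neither passed (adjusted p = 0.423 for LIMA1 and 0.681 for TGFB1I1).

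All 4 genes for filament turnover passed, 3 of them lower, where 25.3% of all genes passed and 14.0% were lower. WDR1 (ENSG00000071127, chromosome 4 from 10074339 to 10116949, minus strand), which helps cofilin take filaments apart, had the largest fall among the 32 tested genes on the log2(FPKM + 1) scale. It had 157, 148 and 149 FPKM in Q63E libraries, against 241, 250.3 and 242 FPKM in VEC libraries, a mean 38.2% lower (log2 fold change −0.69, SE 0.037, adjusted p = 0.000121). Its neighbours on chromosome 4 had a median log2 fold change of −0.46, and with it subtracted the change of WDR1 was −0.23 and still passed (adjusted p = 0.00907). DSTN, destrin of the cofilin family, fell and had 153, 161 and 166 FPKM in Q63E libraries, against 197, 191 and 192 FPKM in VEC libraries (log2 fold change −0.27, SE 0.039, adjusted p = 0.00389), with −0.14 left after subtraction of its neighbours' median (adjusted p = 0.0528).

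CAPZA1, a subunit of the protein that caps filament ends, rose and had 117, 114 and 121 FPKM in Q63E libraries, against 94.8, 96.2 and 94.5 FPKM in VEC libraries (log2 fold change 0.30, SE 0.036, adjusted p = 0.00208). It lies 29486 bases from RHOC on chromosome 1, and with its neighbours' median of 0.30 subtracted its change was −0.001 (adjusted p = 0.989). MICAL2, an enzyme that oxidizes actin, fell and had 75.2, 77.6 and 72.4 FPKM in Q63E libraries, against 83.8, 88.5 and 85.4 FPKM in VEC libraries (log2 fold change −0.19, SE 0.042, adjusted p = 0.019). That call was lost without Q63E replicate 1 or 3 or VEC replicate 2 or 3 (adjusted p = 0.0542 to 0.0564) and in limma without trend (0.0528). It was also lost with the replicate number as a block (0.0504) and with libraries rescaled to equal totals (0.0583). Of the remaining targets, TUFT1 (tuftelin) had 8.52, 9 and 8.23 FPKM in Q63E libraries, against 6.5, 6.31 and 7.56 FPKM in VEC libraries without overlap and missed the threshold narrowly (log2 fold change 0.30, SE 0.089, adjusted p = 0.0502), and it passed in 6 alternatives with adjusted p = 0.0344 to 0.0477. FILIP1L, a filamin-interacting protein gene, had 7.14, 7.23 and 8.12 FPKM in Q63E libraries, against 6.07, 7.96 and 7 FPKM in VEC libraries (log2 fold change 0.09, SE 0.11, adjusted p = 0.589). CMSS1, on the opposite strand over FILIP1L, was more abundant at 35.7 FPKM in Q63E and 37.4 FPKM in VEC.

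**Figure D4:**
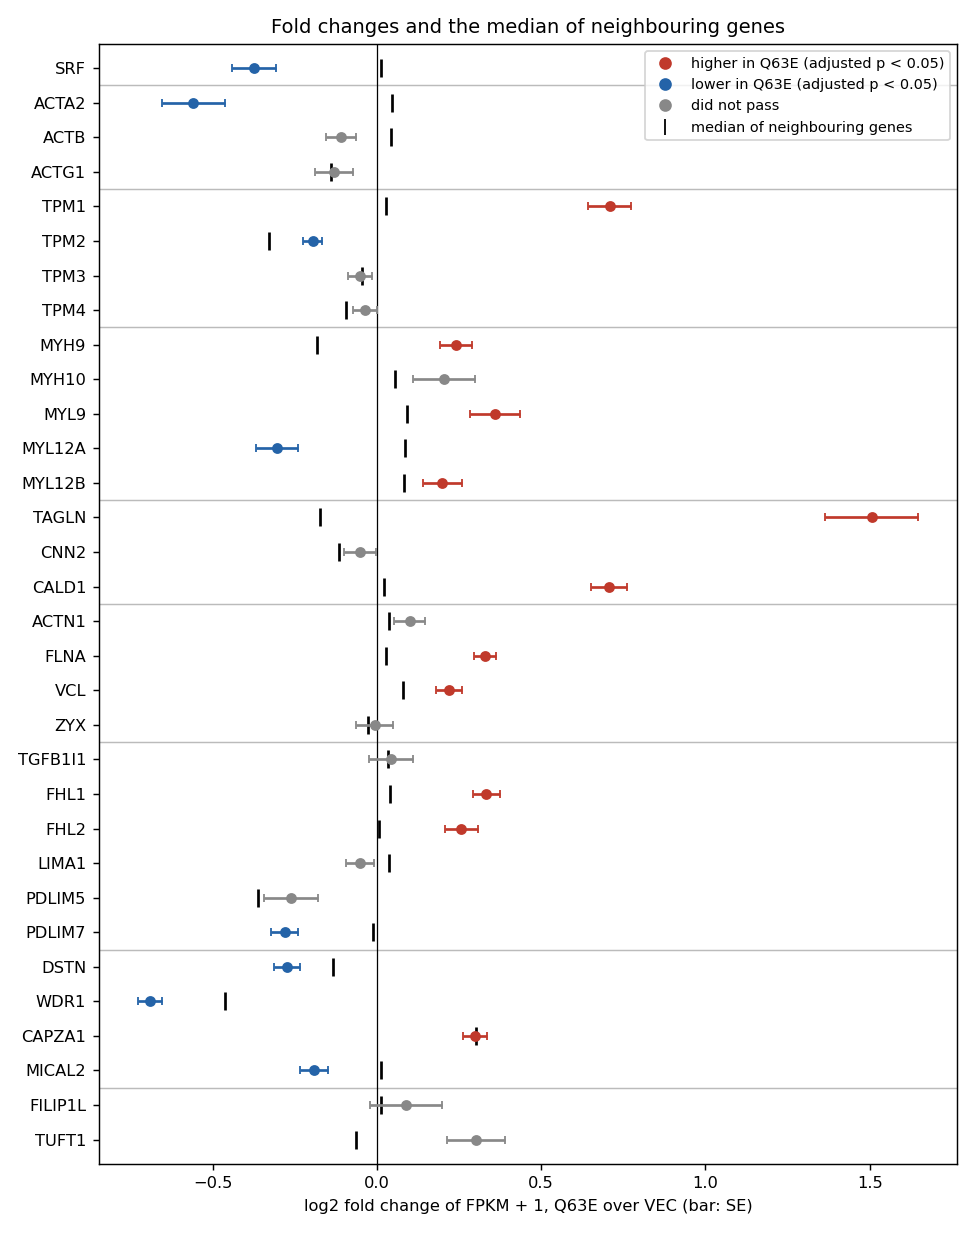
Points are log2 fold changes of FPKM + 1 (Q63E over VEC) with their SE, red for genes that rose, blue for genes that fell and grey for genes that did not pass, and black ticks are the median change of the 40 nearest tested genes on each side. The ticks of WDR1 (−0.46), PDLIM5 (−0.36), TPM2 (−0.33) and CAPZA1 (0.30) lie farthest from 0, and those of TPM1, CALD1, SRF and ACTA2 lie near it.

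Neighbouring genes thus moved together around part of the 34, and a test with the neighbours' median subtracted called 9 higher and 6 lower in place of 11 and 8. Over all 13346 genes the same test called 1194 higher and 1281 lower, in place of 1510 and 1873. Calls were thus lost among all genes as well. CAPZA1, VCL, MYL9 and MYL12B dropped out as higher and DSTN as lower, TPM2 changed side, and TUFT1 passed as higher (adjusted p = 0.0344). What moves whole stretches of a chromosome was not tested.

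Other known MRTF-SRF targets, a list of 30 genes, also moved in both directions. Of 28 tested, 12 rose (42.9%, against 11.3% of all genes) and 5 fell (17.9%, against 14.0%), with a median log2 fold change of 0.10. The share that fell was near that of all genes. CCN1, a matricellular protein gene, rose and had 321, 293 and 376 FPKM in Q63E libraries, against 177, 226 and 214 FPKM in VEC libraries (log2 fold change 0.68, SE 0.12, adjusted p = 0.00858). CCN2, its relative, rose and had 67.1, 55 and 68.6 FPKM in Q63E libraries, against 38.8, 50.04 and 47.6 FPKM in VEC libraries (log2 fold change 0.48, SE 0.12, adjusted p = 0.0312). TNS1, tensin 1 of adhesion sites, fell and had 1.76, 1.13 and 1.57 FPKM in Q63E libraries, against 3.88, 3.76 and 3.06 FPKM in VEC libraries (log2 fold change −0.88, SE 0.15, adjusted p = 0.0081). SVIL, encoding supervillin, fell and had 4.15, 4.61 and 4.41 FPKM in Q63E libraries, against 6.83, 7.55 and 6.15 FPKM in VEC libraries (log2 fold change −0.54, SE 0.099, adjusted p = 0.00983), a change that did not pass with its neighbours' median subtracted (adjusted p = 0.226). The count of rises was 5 without Q63E replicate 1, without Q63E replicate 3 or without VEC replicate 3, and 7 without VEC replicate 1, while the count of falls was 3 without Q63E replicate 2 or 3 or VEC replicate 3. CCN2 was among the calls lost, without Q63E replicate 1 or 3 or VEC replicate 1 or 3 (adjusted p = 0.067 to 0.0986), with no filter on low values (0.0765), in limma without trend (0.0528) and with its neighbours' median subtracted (0.0601).

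Immediate early genes, some of which SRF drives with TCF partners after growth factor signals, fell more often than they rose. Whether SRF drives each listed gene in these cells was not tested. Of 18 tested from a list of 24, 8 fell (44.4%, against 14.0% of all genes) and 1 rose (5.56%, against 11.3%). The other 9 did not pass, and the median log2 fold change was −0.27. DUSP1 rose and had 114, 105 and 109 FPKM in Q63E libraries, against 79.2, 78.8 and 80.7 FPKM in VEC libraries (log2 fold change 0.45, SE 0.041, adjusted p = 0.000741). FOS averaged 2.35 ± 0.86 FPKM in Q63E and 2.24 ± 0.741 FPKM in VEC (SD, n = 3 each) and did not pass (adjusted p = 0.921). EGR1, a zinc finger transcription factor gene, had 3.31, 3.69 and 3.75 FPKM in Q63E libraries, against 6.07, 12.9 and 14.8 FPKM in VEC libraries (log2 fold change −1.34, SE 0.29, adjusted p = 0.0187). JUNB, an AP-1 subunit gene, had 17.1, 17.5 and 17.4 FPKM in Q63E libraries, against 30.5, 38.1 and 39.3 FPKM in VEC libraries (log2 fold change −1, SE 0.097, adjusted p = 0.000895). KLF4 had 3.73, 4.6 and 4.53 FPKM in Q63E libraries, against 7.52, 8.66 and 9.51 FPKM in VEC libraries (log2 fold change −0.85, SE 0.12, adjusted p = 0.00327), and FOSB had 4.75, 4.73 and 4.53 FPKM in Q63E libraries, against 5.75, 9.01 and 8.1 FPKM in VEC libraries (log2 fold change −0.58, SE 0.15, adjusted p = 0.0343). For EGR1, JUNB, KLF4 and FOSB the Q63E libraries lay below the VEC libraries and VEC replicate 1 was the lowest VEC library. The count of falls was 5 without Q63E replicate 1, without Q63E replicate 3 or without VEC replicate 2, and 4 without VEC replicate 3. The calls of EGR1 (adjusted p = 0.0562 to 0.0639) and FOSB (0.0867 to 0.106) were lost without any 1 Q63E replicate and without VEC replicate 2 or 3. With no filter on low values 5 genes fell and neither EGR1 (adjusted p = 0.0516) nor FOSB (0.0851) passed, and FOSB was lost with its neighbours' median subtracted (0.0945).

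SRF cofactors and partners were called about as often as all genes, with 1 higher and 2 lower of 12 tested (25.0%, against 25.3%). MRTFA had 18.5, 18.3 and 17.2 FPKM in Q63E libraries, against 25.4, 27.1 and 25.8 FPKM in VEC libraries and fell (log2 fold change −0.51, SE 0.054, adjusted p = 0.00126), and its relative MRTFB had 7.88, 7.26 and 6.77 FPKM in Q63E libraries, against 5.51, 6.16 and 6.31 FPKM in VEC libraries and did not pass (log2 fold change 0.25, SE 0.091, adjusted p = 0.0943). The acetyltransferase gene EP300 fell and had 16.8, 18.6 and 20.1 FPKM in Q63E libraries, against 26.8, 26.2 and 25.7 FPKM in VEC libraries (log2 fold change −0.48, SE 0.071, adjusted p = 0.0042). MRTFA and EP300 both lie on chromosome 22, where their neighbours' medians were −0.48 and −0.50, and neither passed after subtraction (adjusted p = 0.711 for MRTFA and 0.907 for EP300). ELK3, a TCF, rose and had 70.8, 68.9 and 64.5 FPKM in Q63E libraries, against 51.4, 55.3 and 53.4 FPKM in VEC libraries (log2 fold change 0.35, SE 0.05, adjusted p = 0.0042).

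The list for myosin phosphorylation also holds myosin chains, among them MYL6. It gave 0 rises and 1 fall among 10 tested in limma (10% called, against 25.3% of all genes). At an unadjusted p under 0.05 in limma, 0 were higher and 2 lower. The essential light chain MYL6, the most abundant, averaged 1463 ± 65.1 FPKM in Q63E and 1549.6 ± 102 FPKM in VEC (SD, n = 3 each) and did not pass (adjusted p = 0.354). PPP1R14B, an inhibitor of protein phosphatase 1, fell and had 217, 194 and 216 FPKM in Q63E libraries, against 229.8, 268 and 245 FPKM in VEC libraries (log2 fold change −0.24, SE 0.071, adjusted p = 0.0491), a call lost without any 1 library other than VEC replicate 1 (adjusted p = 0.0824 to 0.124). It was also lost with no filter (0.109), after rescaling to equal totals (0.114), quantile normalization (0.144) or rescaling without mitochondrial genes (0.0683), and without trend (0.0903). MYLK, the smooth muscle myosin kinase, averaged 0.427 ± 0.265 FPKM in Q63E and 0.42 ± 0.294 FPKM in VEC (SD, n = 3 each), under the minimum for testing.

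**Figure D5:**
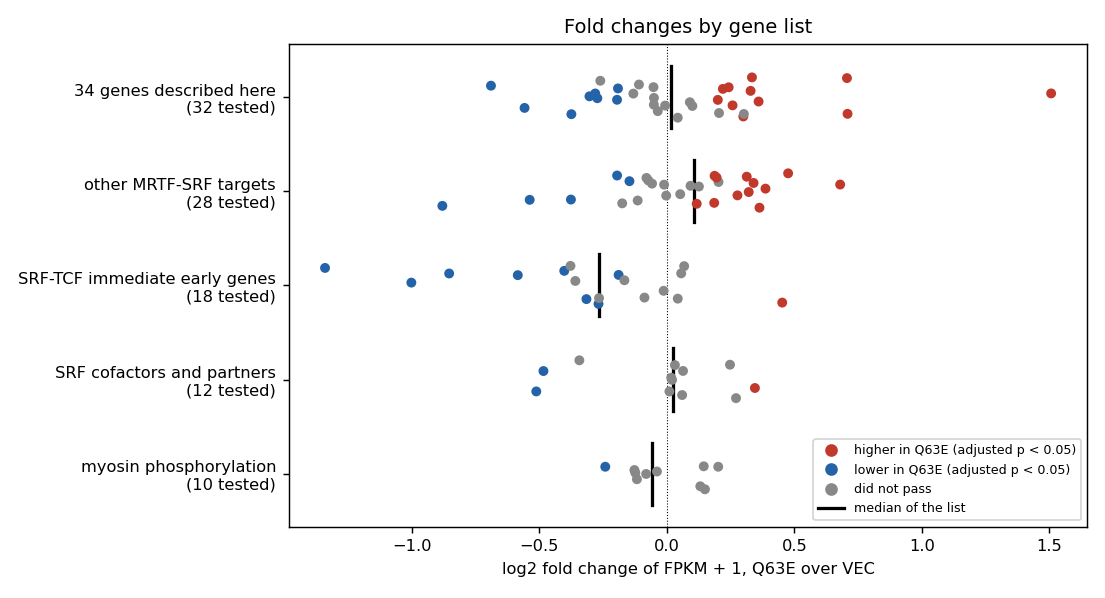
Each point is 1 tested gene, placed by its log2 fold change of FPKM + 1 (Q63E over VEC) and coloured by the test, in rows for the cytoskeletal genes and 4 related lists, with a black bar at the median of each list. The cytoskeletal genes lie on both sides of 0 with TAGLN (1.51) alone at the right, and the immediate early genes have the lowest median (−0.27) and reach −1.34 (EGR1).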

How the data were processed

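Each library had its own deposited table of 58882 features with a single value for each. The values are taken as FPKM made by the authors, because they carry decimals and their totals differ between libraries, although no header or label gives a unit. The 649 features that were assembled loci without a gene symbol were left out. HISAT2 2.1.0, Bowtie2 and the build GRCh38.p10 appear in the submitters' processing notes, with no role. The counting program is not given in the sources used here. Steps of whole reads were searched for, and at best 25.2% of low values fell within 0.1 of a whole number (20% without steps), so depth is unknown and no counting intervals are given.

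Values were transformed to log2(FPKM + 1), so fold changes of low genes are understated. Genes with a mean of at least 1 FPKM were tested with limma 3.58.1 (lmFit, eBayes with trend) in R 4.3.3 on group alone, two-sided, with Benjamini-Hochberg adjustment over 13346 genes and a threshold of 0.05. The steps were checked on simulated data. Family sums and shares were compared with exact permutation tests. Symbols came from a gene table and coordinates from GENCODE release 29 on GRCh38. Coding sequences were compared as the longest open reading frame, aligned from the end. Promoter sequences are from RefSeq (GRCh38.p14). A further gene list is not reported here. The 34 genes and the lists were chosen with earlier results of these data known. For each list, up to 4 genes that passed are named by the size of their change, or the 2 of highest mean if fewer than 2 passed, and also MRTFA, MRTFB, ACTA1 and ACTC1. CNN3, MYLK, MYH11, MYH14, SMTN, KRT19, GATA3, DUSP1, FOS and the overlapping genes were named after their values were seen. Alternatives were other pseudocounts (0.1 and 0.01), filters (none, or a mean of at least 5), scalings (equal totals, quantile normalization, totals without mitochondrial genes), limma without trend, a replicate block, subtraction of the median change of the 40 nearest tested genes on each side, and leaving out each library.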

Additional observations from a re-analysis of the deposited data

How the results depend on the processing

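Of the 19 cytoskeletal genes called, 9 kept direction and call in all 16 alternatives, and 3 of the 13 others passed in at least 1. Across alternatives 8 to 12 rose and 6 to 9 fell. Labels number the replicates but do not say whether libraries of the same number were prepared together. Same-numbered libraries did not deviate together (r = −0.042, −0.0087 and −0.025 across genes). These values cannot show how the libraries were prepared, so a pairing remains unknown, and the main fit used group alone. With the replicate number as a block 8 cytoskeletal genes rose and 6 fell. Of all 13346 genes, 942 were higher (1510 without the block) and 1266 lower (1873 without the block). Among the lists, 5 other MRTF-SRF targets rose and 3 fell, 4 immediate early genes fell and 0 myosin phosphorylation genes fell.

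With no filter on low values, 6 other targets rose, 5 immediate early genes fell and 0 myosin phosphorylation genes fell. Of the 26697 genes then tested, 1152 were higher and 1557 lower, against 1510 and 1873 of 13346 in the main fit. Without trend, 7 other targets rose, 3 other targets fell and 0 myosin phosphorylation genes fell, while 1353 of all genes were higher and 1698 lower. No myosin phosphorylation gene fell after any of the 3 rescalings (0 each). Over all genes 1591 were lower with equal totals, 1699 after quantile normalization and 1883 after rescaling without mitochondrial genes. With the neighbours' median subtracted, 0 SRF cofactors fell and 2 immediate early genes rose. For these the cause was not tested. Leaving out 1 library gave 992 to 1138 genes higher and 1314 to 1483 lower over all genes. In myosin phosphorylation it gave 0 to 1 rises and 0 to 2 falls. There were 5 to 9 rises and 3 to 4 falls of other targets, and 4 to 10 falls of immediate early genes.

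Directions turned with the neighbours' median subtracted for TPM2 (0.13), CAPZA1 (−0.0010), ACTG1 (0.0067), TPM4 (0.059), CNN2 (0.061), ZYX (0.019), PDLIM5 (0.099) and EP300 (0.014). TPM4 was 0.00056 with equal totals, and ZYX 0.029 with equal totals and 0.034 after quantile normalization. Leaving out 1 library moved ZYX between −0.045 and 0.052 and TGFB1I1 between −0.011 and 0.10. It moved the Q63E minus VEC share between −0.751 and 0.0115 points for ACTG1, −0.783 and 0.400 for TPM3, −0.407 and 0.448 for TPM4, −0.259 and 0.754 for MYH9 and −0.754 and 0.259 for MYH10. The unknown depth limits what can be said of genes near 0, such as ACTG2 and CNN1.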
